A study of Capra hircus with 14 samples.

Results

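Tight junctions are belts of protein that join neighbouring epithelial cells near their free surface and limit what passes between the cells. Claudins span the membrane and form the strands themselves, and the mixture of claudins in a cell sets which ions and molecules leak through. Occludin and tricellulin are membrane proteins of the MARVEL family that sit in the same strands, tricellulin mainly where the corners of cells meet. JAM-A, an immunoglobulin-type adhesion protein, helps the junction to form, and the zonula occludens (ZO) scaffold proteins bind these membrane proteins from inside the cell and tie them to actin. In the mammary gland the tight junctions of the milk-secreting epithelium close around the onset of lactation, which keeps milk components from leaking back into the tissue.

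The genes described are 9 tight junction genes of the goat (Capra hircus), chosen by name out of 30277 genes in the table. Earlier results of these data were known when these genes were chosen. They are the claudins CLDN1, CLDN3, CLDN4 and CLDN7, occludin (OCLN), tricellulin (MARVELD2), the scaffolds ZO-1 (TJP1) and ZO-3 (TJP3), and JAM-A (F11R). Their RNA was measured in bulk in 14 libraries of wild-type (WT) cells, 2 for each of 7 days of a protocol that aims to turn goat fibroblasts directly into mammary epithelial cells (CiMECs) with small molecules. On days 1, 2, 3, 4, 6 and 8 the cells were in R induction medium, which was renewed every 2 days; day 0 is the labelled fibroblast line (GEF cells), kept in DMEM with fetal bovine serum. Dishes were coated with Matrigel. No source used here gives the content of R induction medium. Cells kept without it to a later day were not analysed here, and effects of the medium and of time in culture cannot be told apart. The day 8 culture held colonies, and the labels do not say that these were picked from the other cells. In such bulk samples, fewer cells of a type and less RNA per cell cannot be told apart.

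All 9 genes were found in the table, and 8 had enough reads to be tested; CLDN7 did not. Library totals ran from 20515126 to 24746010 estimated counts. Levels are CPM (counts divided by the scaled total of the library), and 3 counts in a library correspond to 0.117 to 0.15 CPM. A gene was called when its adjusted p in edgeR's quasi-likelihood test was under 0.05 over all 15712 genes tested. The labels do not say that the 2 libraries of a day came from separate cultures, and p-values then reflect the spread among these libraries alone, possibly technical.

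The labelled cell type was checked against marker genes. At day 8, 9 of 11 epithelial markers were higher and 2 lower (KRT8 and KRT18), and 9 of 10 fibroblast markers were lower and 1 higher (THY1), all against day 0. Over all tested genes, 36% were higher and 35% lower at day 8 than at day 0. ELF3, among the higher epithelial markers, had at most 20 counts in a library and 0 CPM in both day 0 libraries. The summed epithelial markers stood at 40610 and 41480 CPM at day 8 and at 11250 and 10220 CPM at day 0, so the cells labelled as fibroblasts already held epithelial RNA before induction. Most of this sum was keratin RNA: KRT5 and KRT14 had means of 25370 and 14520 CPM at day 8 and 3810 and 4388 CPM at day 0. In the other libraries the sum was lowest at day 1, at 3363 and 3370 CPM. The summed fibroblast markers were 18050 and 18380 CPM at day 8 and 32940 and 32530 CPM at day 0, and reached 43770 and 43810 CPM at day 1. Endothelial cells have tight junctions too, but CDH5, EMCN and ESAM had at most 1 count in any library and CLDN5 at most 4, and the 7 endothelial markers summed to between 0.527 and 1.55 CPM. Of the 5 leukocyte markers, PTPRC had no count in any library, while the sum, mostly CD14, was 10.1 and 9.56 CPM at day 8 and 134.5 and 133.6 CPM at day 0. The part of these cell type markers in the changes of the tight junction genes was not tested.

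The tight junction genes did not move as 1 group. At day 8, F11R, TJP1 and CLDN1 were higher and CLDN3, CLDN4 and OCLN lower than at day 0, while MARVELD2 and TJP3 were not called. That is 3 of 8 tested genes in each direction, beside 36% of all tested genes called higher and 35% called lower, so the number of calls was near that of the table as a whole. The same 6 genes were called in the same directions at day 1, when 34.8% of all genes were higher and 34.5% lower. Between these days the counts of higher and lower genes were 2 and 3 at day 2 (32.9% and 31.6% of all genes), 3 and 3 at day 3 (35.9% and 35%), 2 and 3 at day 4 (33.9% and 33.5%), and 3 and 3 at day 6 (37.9% and 37.5%). CLDN3, CLDN4 and OCLN were lower, and CLDN1 and TJP1 higher, on each of the 6 later days. The gene that completed the higher group was F11R at days 1, 6 and 8 and MARVELD2 at day 3. All comparisons with day 0 share its 2 libraries. The median log2 fold change of the 8 tested genes was 0.37 at day 8 and -0.11 at day 1, against medians over all genes of 0.02 and 0.01.

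**Figure D1:**
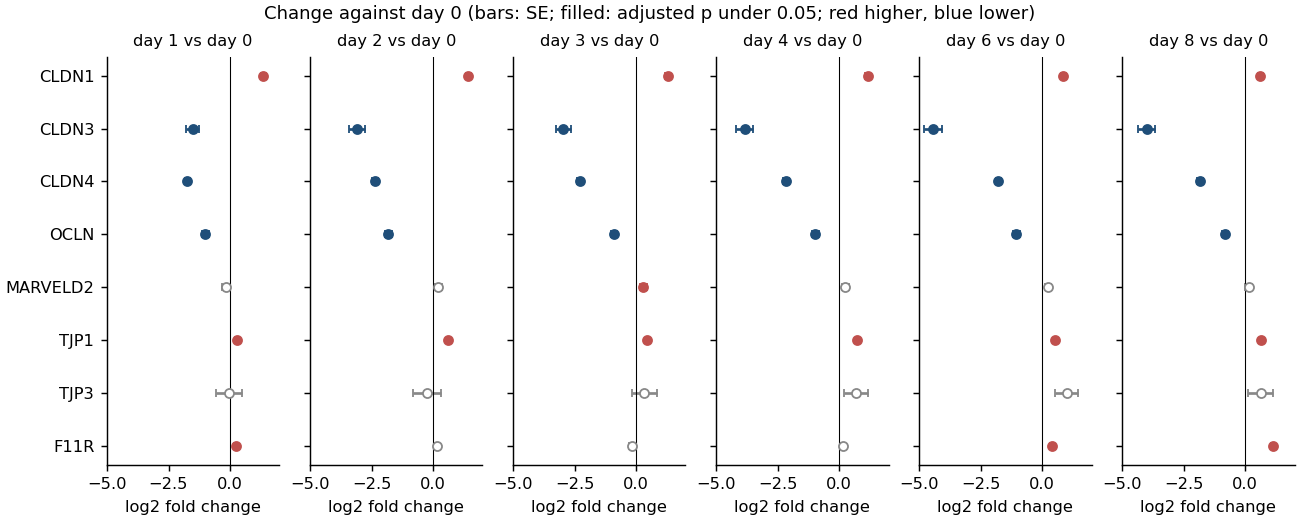
Log2 fold change of each tested tight junction gene on days 1 to 8 against day 0, with error bars of 1 standard error from the edgeR fit over 14 libraries. CLDN3 and CLDN4 lie below 0 on each later day and CLDN1 above it, while F11R lies between -0.19 and 0.39 up to day 6 and at 1.14 at day 8. Filled points are called, red for higher and blue for lower.

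CLDN4, a claudin of simple epithelia and a receptor for Clostridium perfringens enterotoxin, showed its main fall within the first day. It stood at 48.5 and 48.8 CPM on day 0, 15.3 and 13.9 CPM on day 1, 9.18 and 9.79 CPM on day 2, 9.17 and 10.7 CPM on day 3, 9.58 and 12.2 CPM on day 4, 13.6 and 14.8 CPM on day 6, and 14.8 and 12.4 CPM on day 8. Both day 0 libraries lay far above the 12 later ones. Its log2 fold change was -1.74 ± 0.103 (SE, n = 2 libraries a day) at day 1 (edgeR adjusted p = 3.57e-13), -2.36 ± 0.11 at day 2 and -1.84 ± 0.104 at day 8 (edgeR adjusted p = 7.37e-14). Day 2 was also lower than day 1 (log2 fold change -0.62 ± 0.123, adjusted p = 0.000201). Neither of the steps between day 2 and day 4 was called. A later gain at day 6 over day 4 (log2 fold change 0.38 ± 0.12, adjusted p = 0.0105) was lost without day 4 replicate 1 or day 6 replicate 2, with an adjusted p between 0.00264 and 0.204 over all alternatives. Day 8 and day 1 overlapped, and their difference was not called (log2 fold change -0.10 ± 0.116, adjusted p = 0.444).

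CLDN3, another enterotoxin receptor of this family, fell further and did not come back. In the RefSeq goat annotation (ARS1.2) it lies on chromosome 25 beside CLDN4, with 1 long non-coding RNA gene (LOC108633927) between them. It had 127 and 108 counts on day 0, 43 and 41 on day 1, 13 and 13 on day 2, 16 and 18 on day 3, 6 and 10 on day 4, 7 and 4 on day 6, and 8 and 7 on day 8. In CPM this was 0.38 and 0.301 at day 8 against 5.95 and 5.01 at day 0, with no overlap between day 0, day 1 and the later days. The log2 fold change was -1.52 ± 0.264 at day 1 (adjusted p = 1.84e-05) and -3.99 ± 0.345 at day 8 (adjusted p = 2.72e-10). From day 4 on the counts were within a few times the floor of 3, and no step between sampled days after day 2 was called. Relative to CLDN4, per transcript length, CLDN3 was 0.0294 ± 0.00111 at day 8, 0.154 ± 0.000225 at day 1 and 0.133 ± 0.0165 at day 0 (mean ± SD, n = 2 libraries), so the ratio was close to its day 0 value at day 1 and well below it at day 8.

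CLDN1, the claudin that mouse skin needs to hold water, moved in the opposite direction. It stood at 12.5 and 16.2 CPM on day 0, 37.0 and 36.3 CPM on day 1, 38.3 and 39.3 CPM on day 2, 33.4 and 36.1 CPM on day 3, 30.2 and 33.8 CPM on day 4, 26.4 and 25.6 CPM on day 6, and 22.1 and 21.8 CPM on day 8. Each later library lay above both day 0 libraries, and after day 2 the mean was lower at each sampled day than at the one before. The log2 fold change against day 0 was 1.35 ± 0.0964 at day 1 (adjusted p = 1.13e-11), 1.43 ± 0.0965 at day 2 and 0.61 ± 0.102 at day 8 (adjusted p = 1.01e-05). Day 8 was lower than day 1 by a called difference (log2 fold change -0.74 ± 0.0907, adjusted p = 1.28e-07). The 2 late steps were less secure. The fall at day 6 from day 4 (-0.30 ± 0.0904, adjusted p = 0.00729) was lost without day 4 replicate 2 and in DESeq2, with a range of 0.00124 to 0.114. The fall at day 8 from day 6 (-0.24 ± 0.0938, adjusted p = 0.0348) was lost without any 1 of those 4 libraries and in DESeq2, with a range of 0.00942 to 0.138.

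CLDN7, a claudin of the basolateral membrane that binds the adhesion protein EPCAM, stayed close to the detection floor throughout. Its counts were 5 and 4 on day 0, 7 and 7 on day 1, 6 and 6 on day 2, 5 and 6 on day 3, 8 and 8 on day 4, 2 and 1 on day 6, and 2 and 7 on day 8. With no filter on low counts, day 8 and day 0 were not distinguishable (log2 fold change -0.06 ± 0.961, adjusted p = 1), and the lowest adjusted p of any comparison was 0.0633, for day 6 against day 4. EPCAM itself was well expressed, at 88.4 and 95.2 CPM at day 8 and 79.6 and 83.1 CPM at day 0.

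**Figure D2:**
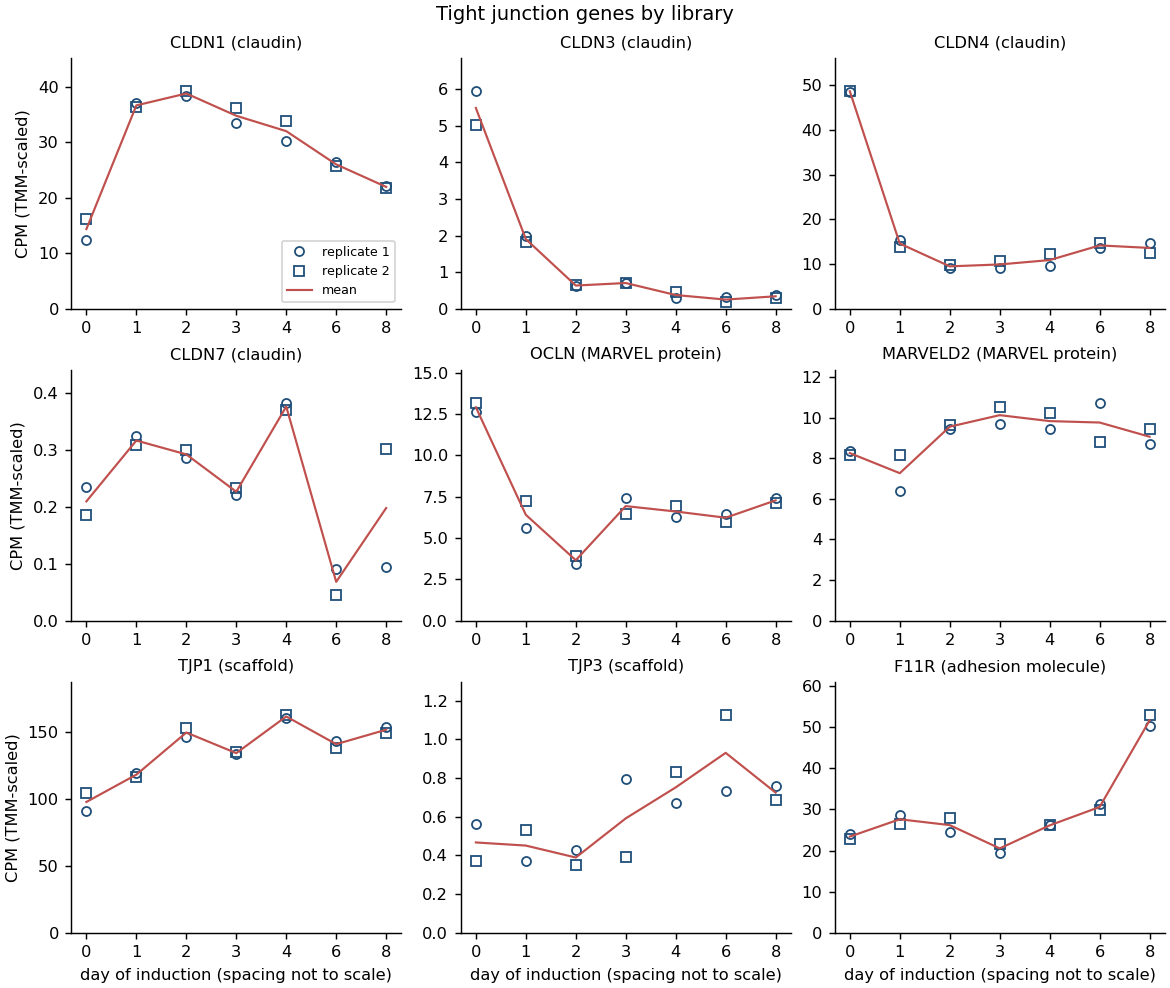
CPM of each of the 9 tight junction genes in each of the 14 libraries, by day of induction; circles and squares are the 2 libraries of a day and lines join the day means. Days are evenly spaced, and each panel has its own scale from 0. CLDN4 is at 15.3 and 13.9 CPM by day 1, when CLDN1 is at 37.0 and 36.3 CPM, and F11R is at 50.3 and 53.0 CPM at day 8.

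These opposite movements changed the claudin make-up of the cells. The table holds 22 claudins by symbol, of which 5 had no count in any library, and their levels can be added per kilobase of transcript. The total was 23.5 and 21.6 CPM per kilobase at day 8 and 41.0 and 42.1 at day 0, with 27.5 and 26.5 at day 1 and between 21.3 and 24.1 from day 2 to day 8. CLDN4 supplied 34.8% of the total at day 8, 31.2% at day 1 and 67.8% at day 0. CLDN1 supplied 31.1% at day 8, 54.5% at day 2 and 11% at day 0. It was the leading claudin in both libraries at days 1, 2, 3 and 4, and about level with CLDN4 at day 6 (34.9% and 34.4%). The ratio of CLDN1 to CLDN4, per length, was 0.142 and 0.184 on day 0, 1.34 and 1.44 on day 1, 2.30 and 2.22 on day 2, 2.01 and 1.87 on day 3, 1.74 and 1.53 on day 4, 1.07 and 0.958 on day 6, and 0.823 and 0.972 on day 8. Every library under induction thus held more CLDN1 relative to CLDN4 than either day 0 library, and the ratio declined again after day 2.

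Other claudins supplied part of the total. CLDN12, a widely expressed claudin, made up 6.17% at day 0 and between 12.3% and 17.5% on the later days, with 15.9% at day 1 and 14.2% at day 8. Its own level was 3.24 and 3.16 CPM per kilobase at day 8 and 2.46 and 2.66 at day 0 (log2 fold change 0.32 ± 0.107, adjusted p = 0.0102), while the claudin total was lower at day 8. CLDN23 had 115 and 106 counts at day 8, against 11 and 12 at day 0, and made up 7.06% of the day 8 total. CLDN11, known from myelin and testis, had 58 and 76 counts at day 8 and 2 and 0 at day 0, which is 6.85% of the day 8 total. These 3 genes were singled out after their values were seen.

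**Figure D3:**
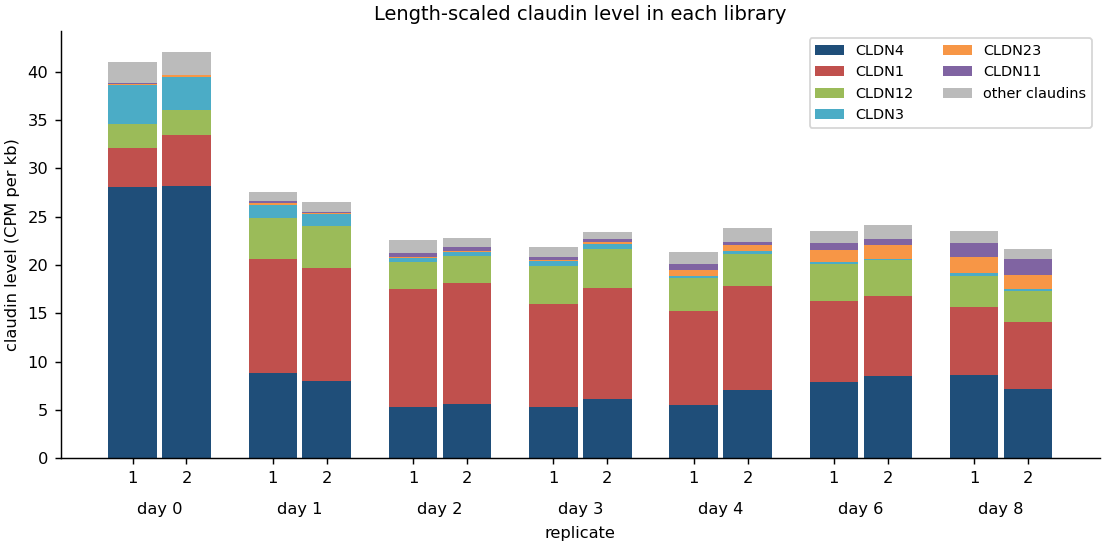
Claudin level (CPM per kilobase) in each library by day of induction, stacked by gene, with claudins not named in the legend in grey. The bars reach 41.0 and 42.1 at day 0 and 23.5 and 21.6 at day 8. CLDN4 is the largest piece at day 0 and CLDN1 at days 1, 2, 3 and 4.

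Of the MARVEL proteins, OCLN fell and MARVELD2 was not called at day 8. Their genes lie next to each other on chromosome 20 in ARS1.2. OCLN stood at 12.7 and 13.2 CPM on day 0, 5.60 and 7.21 CPM on day 1, 3.42 and 3.90 CPM on day 2, 7.41 and 6.46 CPM on day 3, 6.28 and 6.94 CPM on day 4, 6.46 and 5.99 CPM on day 6, and 7.41 and 7.15 CPM on day 8. All 12 later libraries were below both day 0 libraries, with a trough at day 2 that overlapped no other day. The log2 fold change was -1.01 ± 0.134 at day 1 (adjusted p = 4.28e-07), -1.82 ± 0.149 at day 2 (adjusted p = 1.5e-10) and -0.83 ± 0.131 at day 8 (adjusted p = 5.49e-06). The partial return at day 3 over day 2 was called (log2 fold change 0.92 ± 0.159, adjusted p = 4.87e-05), and no later step was. Day 8 did not differ from day 1 by the test (0.18 ± 0.143, adjusted p = 0.273).

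MARVELD2 changed little over the time course. It stood at 8.34 and 8.17 CPM on day 0, 6.39 and 8.14 CPM on day 1, 9.46 and 9.64 CPM on day 2, 9.70 and 10.5 CPM on day 3, 9.44 and 10.2 CPM on day 4, 10.7 and 8.79 CPM on day 6, and 8.69 and 9.43 CPM on day 8. Both day 8 libraries were above both day 0 libraries, but the difference was not called (log2 fold change 0.14 ± 0.134, adjusted p = 0.374). The call at day 3 against day 0 (0.30 ± 0.131, adjusted p = 0.0476) was lost in 10 of 14 fits that left out a library, in DESeq2, with DESeq2 size factors, with no filter, with those 2 days alone and with a replicate block (adjusted p = 0.0517), with a range of 0.0365 to 0.221. Per length, MARVELD2 relative to OCLN was 0.614 ± 0.0509 at day 8, 1.29 ± 0.101 at day 2 and 0.315 ± 0.0138 at day 0 (mean ± SD, n = 2 libraries). The ratio was thus above its day 0 value on the later days, with OCLN supplying the larger change.

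The scaffold TJP1, which carries PDZ, SH3 and guanylate kinase domains and links claudins and occludin to actin, was abundant from the start. It stood at 91.1 and 104.4 CPM on day 0, 119.7 and 116.8 CPM on day 1, 146.6 and 152.8 CPM on day 2, 133.8 and 134.9 CPM on day 3, 160.4 and 163.0 CPM on day 4, 143.7 and 138.3 CPM on day 6, and 154.0 and 149.6 CPM on day 8. Both day 0 libraries were the lowest of the 14. The log2 fold change was 0.27 ± 0.0585 at day 1 (adjusted p = 0.000227), 0.73 ± 0.058 at day 4 (adjusted p = 8.83e-11) and 0.63 ± 0.058 at day 8 (adjusted p = 7.48e-10). Day 8 was also higher than day 1 (0.36 ± 0.0572, adjusted p = 6.07e-06). Between days 2 and 6 the level alternated: it was called lower at day 3 than at day 2 (-0.16 ± 0.0569, adjusted p = 0.0285), higher at day 4 than at day 3 (0.27 ± 0.0566, adjusted p = 0.00037), and lower at day 6 than at day 4 (-0.20 ± 0.0567, adjusted p = 0.00499). The first of these calls was lost without day 2 replicate 2 or either day 3 library and in DESeq2 (range 0.00497 to 0.185), and the last without day 6 replicate 2 and in DESeq2 (range 0.000444 to 0.0527).

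TJP3, the related scaffold ZO-3 found mainly in epithelia, was barely detected. Its counts were between 7 and 25 in the 14 libraries, with 0.76 and 0.689 CPM at day 8 and 0.562 and 0.371 CPM at day 0. Days 8 and 0 did not overlap, but the difference was not called (log2 fold change 0.63 ± 0.498, adjusted p = 0.267). Over the 7 days each pair of neighbours in the order of levels overlapped. TJP3 was also the tested gene with no call in the F test over all days (adjusted p = 0.17), which called the other 7 of 8 tested genes, beside 92.4% of all genes. Among those 7, MARVELD2 (adjusted p = 0.0227) was lost without day 1 replicate 1 (adjusted p = 0.202) and in DESeq2 (adjusted p = 0.137), with 0.00915 as its lowest adjusted p over all alternatives.

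F11R made most of its rise after day 6. JAM-A, its product, is an immunoglobulin-type receptor that recruits polarity proteins to young junctions. It stood at 24.1 and 22.7 CPM on day 0, 28.8 and 26.5 CPM on day 1, 24.4 and 28.0 CPM on day 2, 19.4 and 21.6 CPM on day 3, 26.1 and 26.1 CPM on day 4, 31.3 and 29.9 CPM on day 6, and 50.3 and 53.0 CPM on day 8. The day 8 pair lay well above all 12 other libraries. The log2 fold change was 1.14 ± 0.0812 at day 8 against day 0 (adjusted p = 6.71e-12) and 0.76 ± 0.0785 at day 8 against day 6 (adjusted p = 3.21e-08). At day 6 it was 0.39 ± 0.0847 against day 0 (adjusted p = 0.000253). The day 1 call (0.24 ± 0.0856, adjusted p = 0.0166) was lost without day 0 replicate 2 or day 1 replicate 1 and in DESeq2, with a range of 0.0121 to 0.151. A pseudogene, LOC102175729, overlaps F11R in ARS1.2, and it had at most 1 count in any library.

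Compared per kilobase of transcript, the order of the genes at day 8 was TJP1 (21.2 ± 0.427 CPM per kilobase, mean ± SD, n = 2), F11R (16.8 ± 0.632), CLDN4 (7.87 ± 0.989), CLDN1 (7.01 ± 0.058), OCLN (2.36 ± 0.0602), MARVELD2 (1.45 ± 0.0833), TJP3 (0.235 ± 0.0163), CLDN3 (0.232 ± 0.0379) and CLDN7 (0.105 ± 0.0771). Of the neighbours in that order, TJP3 and CLDN3 overlapped. At day 0 the order was CLDN4 (28.1 ± 0.0877), TJP1 (13.7 ± 1.31), F11R (7.61 ± 0.322), CLDN1 (4.58 ± 0.852), OCLN (4.19 ± 0.12), CLDN3 (3.74 ± 0.453), MARVELD2 (1.32 ± 0.0198), TJP3 (0.151 ± 0.0438) and CLDN7 (0.111 ± 0.0182). There, CLDN1 overlapped OCLN, and TJP3 overlapped CLDN7. CLDN4 was thus the most abundant of the 9 genes per length at day 0, and TJP1 was at day 8.

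The steps between sampled days after day 1 held fewer calls than the first day. The same was seen over all genes, of which 34.8% were higher and 34.5% lower on the first day. At day 2 against day 1, 2 of 8 tested genes were higher (TJP1 and MARVELD2) and 3 lower (CLDN3, CLDN4 and OCLN), beside 25.3% and 23.1% of all genes. At day 3 against day 2, OCLN was higher and TJP1 and F11R lower (21.2% and 24.1% of all genes). At day 4 against day 3, TJP1 and F11R were higher and none was lower at an adjusted p under 0.05 (28.8% and 21.6%), so that both returned to or passed their day 2 level. At day 6 against day 4, CLDN4 and F11R were higher and CLDN1 and TJP1 lower (23% and 31.2%). At day 8 against day 6, F11R was higher and CLDN1 lower (25.6% and 23.2%).

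Day 8 set against day 1 leaves out the first day, when the medium was changed. Of the 8 tested genes, TJP1, MARVELD2 and F11R were higher and CLDN1 and CLDN3 lower, beside 31.8% and 35% of all genes. F11R was higher by 0.91 ± 0.0794 on the log2 scale (adjusted p = 3.88e-10), and CLDN3 lower, with -2.47 ± 0.385 on that scale (adjusted p = 4.75e-06). The MARVELD2 difference (0.32 ± 0.136, adjusted p = 0.0439) was lost without either day 8 library, either day 2 library or day 1 replicate 1, and in DESeq2, with a range of 0.0119 to 0.412. Some smaller steps of F11R were also fragile. Its fall at day 3 against day 2 (-0.35 ± 0.0869, adjusted p = 0.00209) was lost without day 2 replicate 2 (log2 fold change -0.2479). Its gain at day 6 over day 4 (0.23 ± 0.0838, adjusted p = 0.0245) was lost without either day 4 library or day 6 replicate 1. For its gain at day 4 over day 3 (0.35 ± 0.0866, adjusted p = 0.00182), no alternative changed the call. The MARVELD2 gain at day 2 over day 1 (0.39 ± 0.137, adjusted p = 0.0208) was lost without day 1 replicate 1 or either day 2 library and in DESeq2 (range 0.0079 to 0.266).

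The wider set of tight junction genes held calls in both directions. Of 52 listed symbols 49 were found and 38 could be tested, and 4 of the claudins found (CLDN9, CLDN14, CLDN18 and CLDN25) had no count in any library. At day 8, 18 of 38 were higher and 12 lower than at day 0, beside 36% and 35% of all genes. At day 1 the counts were 12 and 13, beside 34.8% and 34.5%. The day 1 counts and the lower count at day 8 were thus near the shares over all genes. The median log2 fold change at day 8 was 0.21, against 0.02 over all genes.

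Among genes with a mean of at least 5 CPM, the 5 with the largest called gain at day 8 were an actin linker, an adhesion protein and 3 polarity genes. CGNL1 (paracingulin, which links junctions to the cytoskeleton) stood at 10.2 and 11.3 CPM at day 8 and 2.86 and 3.06 CPM at day 0, a log2 fold change of 1.86 ± 0.174. CXADR, an immunoglobulin-type adhesion protein and the receptor of coxsackieviruses and adenoviruses, stood at 130.4 and 132.5 CPM at day 8 and 39.6 and 48.2 CPM at day 0 (1.58 ± 0.076). The polarity genes PATJ (1.31 ± 0.0858), PARD6G (1.26 ± 0.0823) and PARD6B (1.19 ± 0.16) were also higher at day 8. In these 5 genes the 2 days did not overlap.

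Among the lower genes were the junctional adhesion molecules JAM2 and JAM3. JAM2 stood at 3.47 and 3.57 CPM at day 8 and 41.5 and 44.1 CPM at day 0 (log2 fold change -3.60 ± 0.111, adjusted p = 4.37e-19), and JAM3 at 37.6 and 35.2 CPM at day 8 and 116.2 and 117.4 CPM at day 0 (-1.68 ± 0.0597, adjusted p = 7.55e-18). Both are known from endothelium and other non-epithelial cells as well as epithelia. Of the JAM genes named here, F11R was thus higher at day 8, and JAM2 and JAM3 were lower. The other lower genes named by size were ILDR2, an angulin-type protein of tricellular contacts (-1.31 ± 0.143), ARHGEF2, a guanine nucleotide exchange factor that binds cingulin (-1.02 ± 0.059), and MARVELD1 (-0.85 ± 0.0571).

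**Figure D4:**
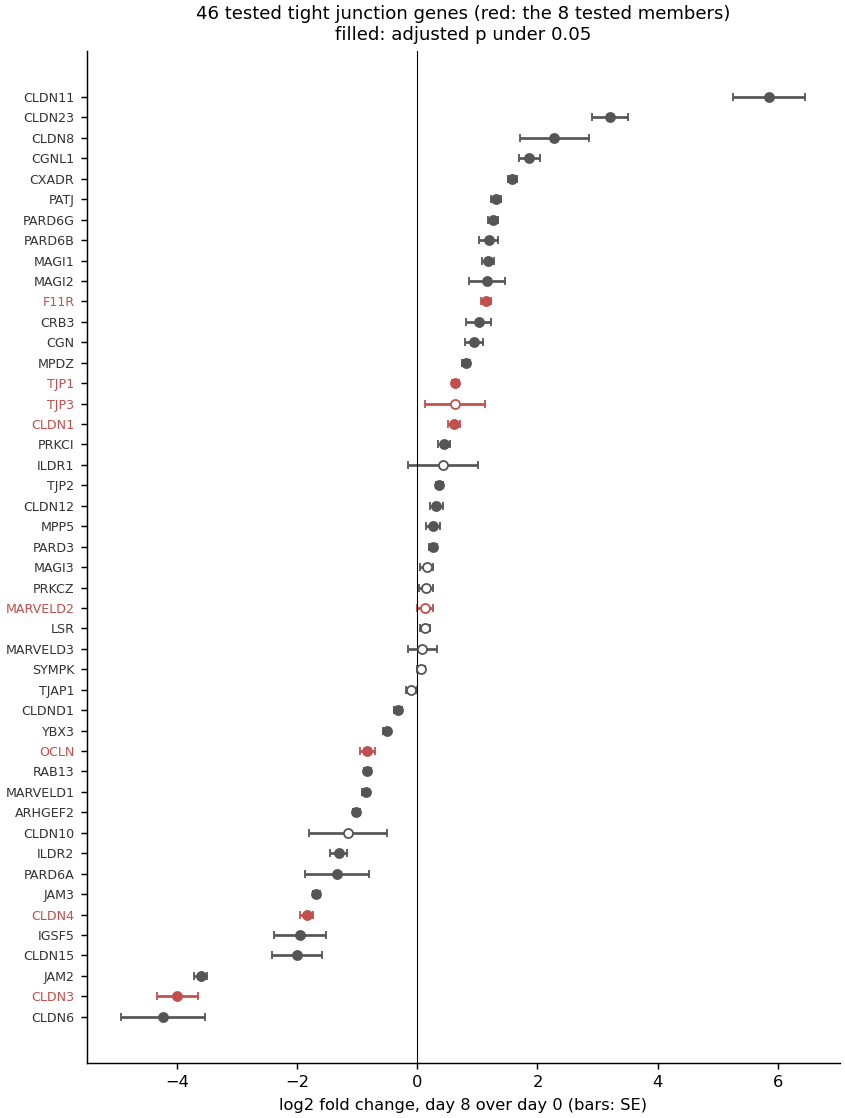
Log2 fold change at day 8 against day 0 of the 8 tested members and the 38 other tested tight junction genes, each point a gene with its standard error, members in red and called genes filled. Values spread to both sides of 0, between -4.23 (CLDN6) and 5.85 (CLDN11), both with few counts, and with JAM2 at -3.60 and CGNL1 at 1.86.

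Genes known to control or accompany tight junctions were mostly lower at day 1. Of the 16 listed, all tested, 3 were higher and 10 lower at day 1 than at day 0, beside 34.8% and 34.5% of all genes, with a median log2 fold change of -0.61. At day 8, 7 were higher and 6 lower than at day 0, beside 36% and 35% of all genes, which is not far from the shares over all genes. GRHL1, GRHL2 and GRHL3, grainyhead-like transcription factors that act on junction genes in epithelia (GRHL2 on claudin genes in mouse), were all higher at day 8. GRHL3 stood at 48.8 and 42.8 CPM at day 8 and 2.39 and 3.34 CPM at day 0 (log2 fold change 3.99 ± 0.153), GRHL1 at 30.8 and 31.1 CPM at day 8 and 1.83 and 2.00 CPM at day 0 (4.01 ± 0.152), and GRHL2 at 14.7 and 13.9 CPM at day 8 and 3.51 and 4.08 CPM at day 0 (1.91 ± 0.14). None of the 3 overlapped between these days. The protease inhibitor SPINT2 was also higher (1.31 ± 0.0521).

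On the lower side stood the membrane protease ST14 (matriptase), at 3.94 and 3.83 CPM at day 8 and 30.7 and 25.0 CPM at day 0 (log2 fold change -2.84 ± 0.136), and its inhibitor SPINT1 (-1.45 ± 0.0952). SNAI1, TWIST1 and ZEB1, transcription factors of the epithelial-mesenchymal transition of which SNAI1 and ZEB1 repress epithelial junction genes, were lower as well. SNAI1 stood at 4.27 and 4.05 CPM at day 8 and 25.9 and 24.6 CPM at day 0 (-2.60 ± 0.12), with log2 fold changes of -0.90 ± 0.0921 for TWIST1 and -0.73 ± 0.111 for ZEB1. The related factors SNAI2 (0.12 ± 0.065, adjusted p = 0.109) and ZEB2 (0.0011 ± 0.0802, adjusted p = 0.991) were not called at day 8. At day 1, ZEB2 (1.40 ± 0.0761, adjusted p = 7.61e-14) and ZEB1 (0.52, adjusted p = 7.72e-05) were higher than at day 0. SNAI1 (-0.63 ± 0.0971, adjusted p = 3.65e-06) and TWIST1 (-0.45 ± 0.0888, adjusted p = 9.45e-05) were lower at day 1, and SNAI2 was not called (0.14 ± 0.065, adjusted p = 0.0571). SNAI2 and ZEB2 were added after their values were seen.

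Set beside the epithelial adhesion gene CDH1 (E-cadherin), the claudins of simple epithelia were also lower on the first day, but their day 8 levels differed in direction. The difference between these genes was not tested. CDH1 stood at 108.0 and 112.2 CPM on day 0, 56.6 and 56.9 CPM on day 1, 40.6 and 44.3 CPM on day 2, 64.0 and 73.2 CPM on day 3, 93.0 and 94.5 CPM on day 4, 137.5 and 132.1 CPM on day 6, and 218.9 and 212.1 CPM on day 8. Its log2 fold change was -0.96 at day 1 and 0.97 ± 0.0589 at day 8, both against day 0. CLDN4 and CLDN3 on the same days had -1.74 and -1.52 at day 1 and -1.84 and -3.99 at day 8. The basal keratin gene KRT5 reached 25070 and 25660 CPM at day 8, against 4004 and 3616 CPM at day 0, while the simple-epithelial keratin genes differed among themselves: KRT8 and KRT18 fell and KRT19 rose. KRT8 stood at 169.5 and 170.2 CPM at day 8 and 1987 and 1834 CPM at day 0, KRT18 at 1.43 and 1.72 CPM at day 8 and 165.9 and 150.3 CPM at day 0, and KRT19 at 496.9 and 504.2 CPM at day 8 and 229.4 and 233.2 CPM at day 0. All libraries of the 2 days were apart in these 5 genes, which, like EPCAM, are also among the epithelial markers counted above. CDH1, KRT5 and GRHL3 were chosen for the plot of junction genes beside epithelial genes after their values were seen.

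**Figure D5:**
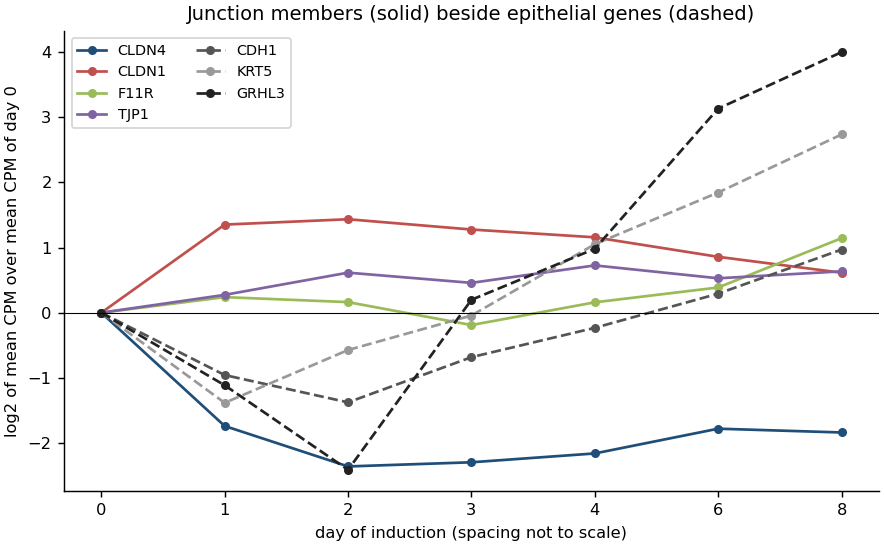
Log2 of the mean CPM of each day over the mean CPM of day 0 for CLDN4, CLDN1, F11R and TJP1 (solid lines) and for CDH1, KRT5 and GRHL3 (dashed lines), by day of induction, with 2 libraries a day and no error bars. CDH1 is at -0.96 on day 1 and 0.97 on day 8, while CLDN4 is at -1.74 on day 1 and -1.84 on day 8.

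The genes whose 7 day means were most like those of each tight junction gene were found among 10200 tested genes with a mean of at least 5 CPM. These correlations across day means (Pearson's r, n = 7) are descriptions, since the day means share libraries and depth. The nearest of 10200 genes over 7 points can have a high r by selection alone. TJP3 was not called in the F test over all days, and the MARVELD2 call there was lost in DESeq2, so their patterns may be noise. The nearest were PRKAB2 (0.997) for CLDN1, RASGRF1 (0.987) for CLDN3, DGAT1 (0.986) for CLDN4, UFSP2 (0.979) for OCLN, FITM2 (0.995) for TJP1, SLC45A4 (0.972) for TJP3, PERM1 (0.983) for MARVELD2 and IL1R1 (0.984) for F11R. The next were ATXN7 (0.994), MBOAT7 (0.983), TMEM238 (0.981), AKAP12 (0.961), TMSB4X (0.988), CYLD (0.964), PSMB9 (0.972) and MTMR3 (0.972), in the same order of tight junction genes. Between the members themselves, r was 0.84 for CLDN4 with OCLN, 0.78 for CLDN3 with CLDN4, -0.88 for CLDN1 with CLDN4 and -0.93 for CLDN3 with TJP1.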

How the data were processed

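Total RNA was depleted of ribosomal RNA and made into TruSeq libraries, per the labels' protocols. The authors deposited 1 table of estimated counts per gene and library, with a mean for each day that was not used. The submitters' processing notes list DESeq2 1.16.1, FastQC 0.10.1 and HTSeq. Aligner, genome build and strand setting were not given in the sources used here, so reads of overlapping or antisense genes cannot be separated. Of the deposited estimated counts 90.0% are whole, and the step that made the fractions is not known; it could split reads between near-identical genes.

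In the deposited table, 1 line was blank or lacked values or a gene identifier. Estimated counts were rounded and tested in R 4.3.3 with edgeR 4.0.16 and limma 3.58.1, using filterByExpr, TMM scaling, a quasi-likelihood fit of all 14 libraries by day with 7 residual degrees of freedom, 2-sided F tests, and Benjamini-Hochberg adjustment over 15712 genes. SE is the size of a log2 fold change over the square root of its F. CPM use TMM-scaled totals. The fit was tested on simulated data with the same spread on each day, unlike these libraries. It called 88% of genes with a true fold of 2 and 87.76% with a true fold of 0.5. Of smaller changes it called 71.43% at a true fold of 1.3 and 59.18% at 0.769, so such changes can be missed. Floors cover counting error only. Libraries of the same day differed beyond sampling noise (chi-square per degree of freedom 1.8 at day 1 to 8.12 at day 0), so comparisons with day 0 may have p-values that are too small.

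All 9 members are named, and from each of the other 2 gene lists the 5 higher and the 5 lower genes with the largest called change at day 8 among those with a mean of at least 5 CPM. A gene that this rule names is not reported here. For each tested member, the 2 genes with the nearest pattern are named. Members and lists were chosen with earlier results of these data known. CDH1, EPCAM, the keratins, SNAI2, ZEB2, CLDN11, CLDN12 and CLDN23 fall outside this rule. Alternatives were DESeq2 size factors, no filter or a stricter one, a replicate block, the 2 days alone, DESeq2 1.42.0, and each library left out in turn.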

Additional observations from a re-analysis of the deposited data

How the results depend on the processing

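Of 1903 values of the tight junction genes under 20 alternatives, 1825 kept direction and call, 47 lost the call, 6 gained it and 25 changed sign. The calls of CLDN1, CLDN3, CLDN4, OCLN, TJP1 and F11R at day 8 against day 0 held under each alternative, as did all 400 values of the named genes of the other lists. Of 259 counts of called genes, 249 stayed within 1.5 times the reported count. DESeq2 called 2 genes at day 6 against day 4 and 1 at day 8 against day 6. Leaving out 1 library gave 1 to 3 called genes at day 3 against day 2, 2 to 4 at day 6 against day 4, and 1 to 3 at day 8 against day 6. Calls gained were F11R at day 3 against day 0 with DESeq2 size factors (adjusted p = 0.0404) or without day 3 replicate 2 (0.0371), F11R at day 2 against day 0 without day 2 replicate 1, MARVELD2 at day 6 against day 0 without day 6 replicate 2 (0.0335), and TJP1 at day 8 against day 6 without either day 0 library. The cause was not tested.

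The values that changed sign were not called. MARVELD2 at day 6 against day 4 had a log2 fold change of 0.0472 with DESeq2 size factors, 0.0029 with the stricter filter, 0.0617 with the 2 days alone and 0.0474 in DESeq2. With 1 library left out, CLDN4 lay between -0.0478 and 0.17 at day 3 against day 2, -0.052 and 0.30 at day 4 against day 3, -0.19 and 0.0635 at day 8 against day 6, and -0.23 and 0.0225 at day 8 against day 1. OCLN lay between -0.16 and 0.0341 at day 4 against day 3, and F11R between -0.18 and 0.0203 at day 2 against day 1. MARVELD2 lay between -0.10 and 0.0196 at day 4 against day 3, -0.16 and 0.13 at day 6 against day 4, and -0.24 and 0.0463 at day 8 against day 6. TJP3 lay between -0.33 and 0.28 at day 1, -0.54 and 0.0673 at day 2 and -0.26 and 0.76 at day 3, all against day 0. Between sampled days TJP3 lay between -0.44 and 0.0713 at day 2, -0.0024 and 1.02 at day 3, -0.0764 and 0.94 at day 4 and -0.0362 and 0.58 at day 6, each against the sampled day before. A lone library is assumed to vary like those of other days. TJP3 did not pass the stricter filter and has no value there. Depth limits CLDN7 and TJP3 most, with 1 to 8 and 7 to 25 counts a library.

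The deviations of libraries of the same number had correlations of -0.0962 to 0.0689 over 21 pairs of days. Such correlations include counting error, and whether the numbers pair libraries was not tested further. With the replicate block, 6 genes were called at day 8 against day 0, and 5 at day 3 against day 0, where MARVELD2 was lost.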
